A study of Mus musculus with 16 samples.

Results

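The hearts of 8 mice with pressure overload were compared, 4 carrying a vector for the long noncoding RNA Cardinal and 4 carrying the same vector with GFP. They were all the transverse aortic constriction (TAC) hearts among the 16 sequenced hearts of the study, and the other 8 came from sham-operated mice. AAV9-Cardinal TAC held the mice titled with replicate numbers 1, 4, 5 and 6, and AAV9-GFP TAC those with numbers 1, 3, 4 and 7. Each comparison was made with all 8 mice and again without AAV9-Cardinal TAC replicate 1, which left 3 mice against 4.

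All 16 mice were male wild-type mice given AAV9 on postnatal day 1, and each vector drove its insert from the cardiac troponin T (cTNT) promoter, which acts in cardiomyocytes and not in the other cells of the heart. The genotypes on the labels were AAV9-cTNT-CARDINAL and AAV9-cTNT-GFP. RNA was taken from the heart apex 4 weeks after TAC or sham surgery, selected for poly(A) and sequenced. The insert was mouse Cardinal, so that reads of the vector and of the mouse's own gene were counted together, and both groups kept the endogenous gene. Nothing beyond the titles says how the mice were bred or operated on in batches. The edgeR p-values set the difference between groups against the spread of hearts within groups, to which the sham hearts contributed.

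TAC narrows the aorta, and the left ventricle answers with larger cardiomyocytes, with expansion of the interstitial matrix and with a return of fetal genes such as the natriuretic peptides and skeletal α-actin. Matrix collagens and periostin come mostly from fibroblasts, whereas fatty acid oxidation and the respiratory chain serve the cardiomyocyte, and in pressure-overloaded hearts the first set is known to rise and the second to decline. Cardinal is transcribed next to myocardin, a cofactor of serum response factor, and the study examined it together with the ribosome-associated GTPase DRG1. The comparison asks whether more Cardinal in cardiomyocytes changes the transcriptome of the overloaded heart.

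The 8 TAC libraries held between 21703116 and 21904589 counts each, a narrow range. Mitochondrially encoded genes took 31.0 to 31.9% of counts in AAV9-Cardinal TAC and 30.3 to 31.0% in AAV9-GFP TAC. The TMM normalization factors of the AAV9-Cardinal TAC libraries were 0.981 to 1.04 and those of AAV9-GFP TAC 1.05 to 1.09. Levels below are CPM, counts scaled to the TMM-corrected library size, and cannot be compared between genes because they are not divided by gene length. As heart tissue should, all 8 libraries had high Tnnt2 (3786 to 4919 CPM), while the fat cell gene Adipoq was at 0 to 0.575 CPM, and the 8 markers of fast skeletal muscle summed to 0.398 to 1.69 CPM.

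Acta1 and Thbs4 are shown here by the 250 bases before their RefSeq start (build GRCm38.p6), because they were among the steepest falls with every mouse included. Acta1, skeletal α-actin, starts on the minus strand of chromosome 8, and its window is chr8:123894776-123895025. Thbs4, thrombospondin 4, starts on the minus strand of chromosome 13, and its window is chr13:92794819-92795068. Both are printed 5′ to 3′ on the gene's strand, with matches to the CArG box of serum response factor and to the MCAT element CATTCC of TEAD factors in capitals.
Acta1: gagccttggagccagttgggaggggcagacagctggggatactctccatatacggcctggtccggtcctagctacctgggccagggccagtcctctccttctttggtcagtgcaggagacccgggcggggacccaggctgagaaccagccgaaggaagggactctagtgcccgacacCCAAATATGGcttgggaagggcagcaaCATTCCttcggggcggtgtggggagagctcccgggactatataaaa
Thbs4: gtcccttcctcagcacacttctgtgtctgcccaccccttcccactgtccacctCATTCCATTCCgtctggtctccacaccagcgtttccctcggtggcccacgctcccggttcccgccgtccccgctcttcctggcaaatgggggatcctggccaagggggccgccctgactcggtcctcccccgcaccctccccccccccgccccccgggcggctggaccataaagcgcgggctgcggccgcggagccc
The Acta1 window held 1 CArG box beginning 73 bases and 1 MCAT element beginning 46 bases before the start, and the Thbs4 window held 2 overlapping MCAT matches beginning 197 and 192 bases before it. Searched on both strands, a CArG box was in 1.47% and an MCAT element in 12.6% of all 32851 such windows. Of the 13 genes lower with all mice, 8 had such a window, and 1 of these held a CArG box and 3 an MCAT element. Such a match is a description of the letters only.

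Cardinal itself was higher in every AAV9-Cardinal TAC heart than in any AAV9-GFP TAC heart. Gm12295, the annotated lincRNA gene of Cardinal (ENSMUSG00000085162, chromosome 11, 65277654 to 65365798, minus strand), was at 93.9 CPM in replicate 1 and at 18.3, 19.5 and 20.6 CPM in replicates 4, 5 and 6. The AAV9-GFP TAC hearts had 7.24, 3.90, 3.59 and 4.78 CPM. Replicate 1 thus carried more Cardinal RNA than each of its 3 companions, which were close to each other, and the groups did not overlap. The log2 fold change was 2.96 (SE 0.49, edgeR adjusted p = 0.0392) with all mice and 2.00 (SE 0.21, edgeR adjusted p = 0.000276) without replicate 1. With 1 mouse left out, the adjusted p stayed under 0.05 in 4 of 16 fits, among them the fit without replicate 1. The exact permutation test over 4 and 4 mice gave p = 0.0286, the smallest its 70 labelings allow. In the sham hearts the level was 26.2 to 40.0 CPM with the Cardinal vector and 3.42 to 5.93 CPM with GFP, so that 3 of the 4 AAV9-Cardinal TAC hearts had less Cardinal than every AAV9-Cardinal sham heart.

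The neighbors and partners of Cardinal did not pass the test. Myocd, the adjacent gene, was at 40.2 to 45.7 CPM in AAV9-Cardinal TAC and 33.7 to 42.5 CPM in AAV9-GFP TAC (log2 fold change 0.14, SE 0.13, edgeR adjusted p = 0.667). Drg1 was at 26.1 to 27.4 CPM against 24.6 to 28.9 CPM, with a log2 fold change of -0.00 (SE 0.06). Zc3h15, which encodes the DRG1 partner DFRP1, was at 23.9 to 25.4 CPM against 22.4 to 24.7 CPM, a log2 fold change of 0.07 (SE 0.06).

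**Figure D1:**
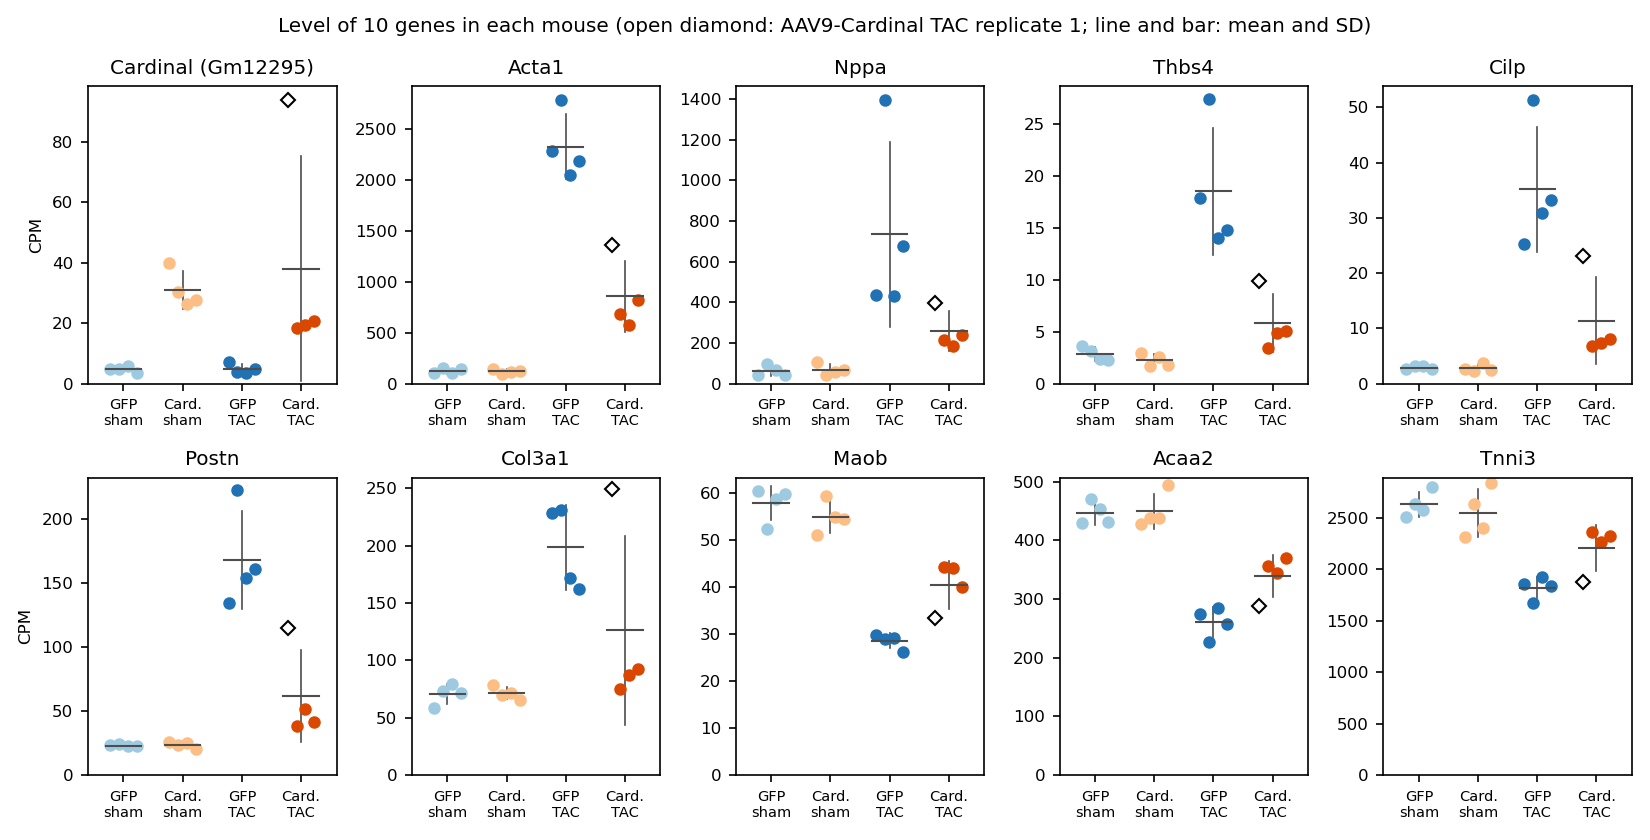
Level of 10 genes in CPM (vertical axes, from 0) in each of the 16 mice, by group (4 mice each); lines are group means, bars ± 1 SD, and the open diamond is AAV9-Cardinal TAC replicate 1. The diamond is the highest AAV9-Cardinal TAC value of Cardinal, Acta1, Nppa, Thbs4, Cilp, Postn and Col3a1 and the lowest of Maob, Acaa2 and Tnni3.

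With all 8 mice, 17 of 16857 tested genes passed an adjusted p of 0.05 in edgeR's quasi-likelihood test (0.101% of genes tested), 4 of them higher in AAV9-Cardinal TAC (0.0237%) and 13 lower (0.0771%). With the GC content of genes corrected for, 7 of 20 were higher, a larger share. An unadjusted p under 0.05 was reached by 2528 genes, and 1141 genes had no overlap between the 4 and 4 mice (6.77%).

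The lower genes were led by a matrix glycoprotein, a growth factor and the fetal actin. Thbs4, which is secreted into the matrix of stressed muscle, was at 9.87, 3.38, 4.89 and 5.11 CPM in AAV9-Cardinal TAC replicates 1, 4, 5 and 6 and at 17.9, 27.4, 14.0 and 14.8 CPM in AAV9-GFP TAC replicates 1, 3, 4 and 7. Every AAV9-Cardinal TAC heart was below every AAV9-GFP TAC heart, and replicate 1 was the nearest to them. The log2 fold change was -1.67 (SE 0.29, edgeR adjusted p = 0.0429), and -2.05 (SE 0.26, edgeR adjusted p = 0.000842) without replicate 1.

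Acta1, the skeletal actin that the adult heart re-expresses under load, was at 1359 CPM in replicate 1 and at 687, 571 and 815 CPM in the other AAV9-Cardinal TAC hearts. It was at 2280, 2785, 2049 and 2183 CPM in AAV9-GFP TAC, again with no overlap. It fell by 1.44 on the log2 scale with all mice (SE 0.23, edgeR adjusted p = 0.0392) and by 1.75 without replicate 1 (SE 0.19, edgeR adjusted p = 0.000276). Sham hearts had 92.7 to 153 CPM, so even the lowest AAV9-Cardinal TAC heart was above all of them. Gdf6, a bone morphogenetic protein, was at 1.28, 0.564, 1.02 and 0.645 CPM against 1.84, 2.31, 2.97 and 3.00 CPM, a log2 fold change of -1.51 (SE 0.24, edgeR adjusted p = 0.0392), at levels of few counts.

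Of the 13 lower genes, Gm17228, Gm47692 and Gm8543 are processed pseudogenes, with log2 fold changes of -1.32, -1.21 and -0.99. Of their 50-base stretches, 11.5%, 21.3% and 27.7% are also found in other annotated genes, Acta1 among them, and whether their counts are their own is uncertain. Frzb, a secreted Wnt antagonist known from cartilage, was at 3.43 to 4.33 CPM in AAV9-Cardinal TAC and 6.08 to 8.43 CPM in AAV9-GFP TAC (log2 fold change -0.80), and Unc5b, a netrin receptor, at 10.2 to 14.6 CPM against 17.8 to 24.3 CPM (-0.80). Igfbp7 is a secreted binding protein of the vascular and interstitial matrix, and Fstl1 a secreted follistatin-like glycoprotein. Igfbp7 was at 90.7 to 127 CPM against 144 to 181 CPM (-0.61) and Fstl1 at 74.0 to 108 CPM against 115 to 143 CPM (-0.56). Pter, Dagla (which makes the endocannabinoid 2-arachidonoylglycerol) and Haus8 (a subunit of the augmin complex of the spindle) had log2 fold changes of -0.77, -0.61 and -0.61. Exons of Haus8 and Igfbp7 overlap genes on the opposite strand (Myo9b and Polr2b), whose reads cannot be told apart without strand.

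Beside Cardinal, 3 genes rose. Maob, monoamine oxidase B of the outer mitochondrial membrane, was at 33.4, 44.3, 44.1 and 39.9 CPM in AAV9-Cardinal TAC and 29.8, 28.9, 29.1 and 26.2 CPM in AAV9-GFP TAC (log2 fold change 0.50, SE 0.08, edgeR adjusted p = 0.0392). Vdac3, a porin of the same membrane, was at 114, 123, 117 and 116 CPM against 102, 99.8, 102 and 103 CPM, a small difference of 0.21 on the log2 scale that exceeded the spread of both groups (SE 0.03, edgeR adjusted p = 0.0429). Of the 50-base stretches of Vdac3, 12.8% also lie in other genes. Efnb3, an ephrin ligand, was at 43.1 to 56.3 CPM against 25.0 to 39.9 CPM (log2 fold change 0.64). All 8 sham hearts were above the TAC hearts for these 3 genes, with 51.1 to 60.5 CPM of Maob, 123 to 130 CPM of Vdac3 and 56.7 to 66.6 CPM of Efnb3.

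These 17 calls sat close to the threshold. The highest adjusted p among them was 0.0468 and the lowest 0.0287. When 1 mouse was left out, none passed without AAV9-Cardinal TAC replicate 4, 5 or 6, AAV9-GFP TAC replicate 3, or any of 4 sham mice, whereas 535 passed without AAV9-Cardinal TAC replicate 1. The fold changes moved less than the calls did, from -1.75 to -1.28 for Acta1 and from -2.05 to -1.41 for Thbs4 over the 16 mice left out in turn.

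**Figure D2:**
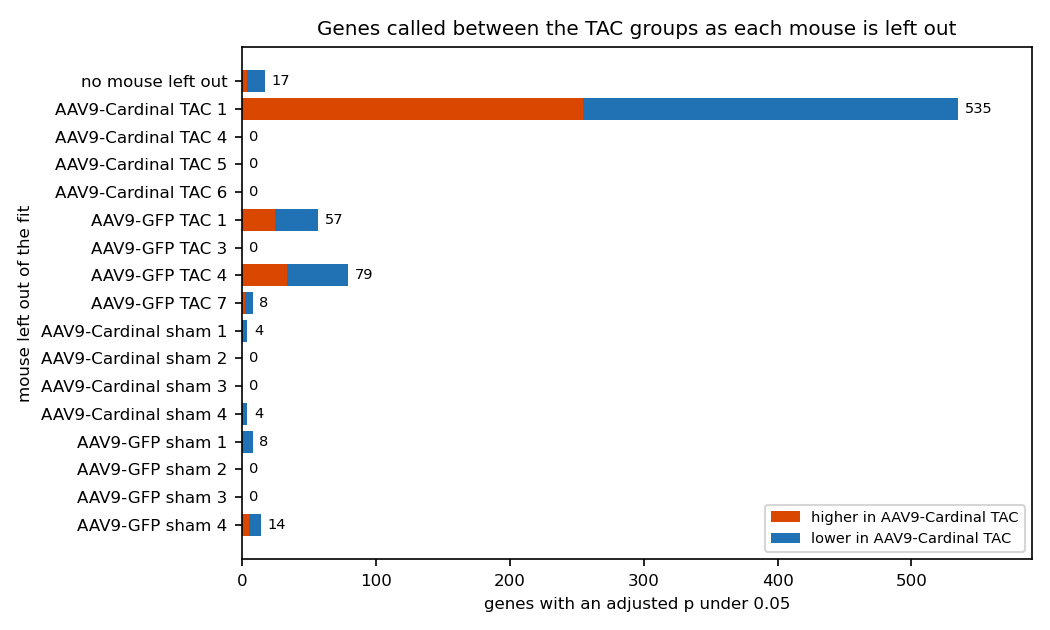
Number of genes with an edgeR adjusted p under 0.05 between AAV9-Cardinal TAC and AAV9-GFP TAC (horizontal axis) with no mouse or 1 mouse left out of the fit (vertical axis), split into genes higher and lower in AAV9-Cardinal TAC. The count was 17 with no mouse left out, 535 without AAV9-Cardinal TAC replicate 1, and 0 to 79 without any other mouse.

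AAV9-Cardinal TAC replicate 1, the heart with the most Cardinal, was also the farthest from the others of its group. The root mean square difference of log2 levels over all tested genes was 0.509 to 0.539 between it and the other 3 AAV9-Cardinal TAC hearts, 0.463 to 0.480 among those 3 and 0.487 to 0.520 among the 4 AAV9-GFP TAC hearts. It was 0.462 to 0.528 from the AAV9-GFP TAC hearts, while the other 3 were 0.488 to 0.600 from them. On the first principal component of the 8 hearts, which held 24.5% of their variance, replicates 4, 5 and 6 were at -0.240, -0.215 and -0.144. Replicate 1 was at 0.096, inside the range of 0.019 to 0.237 of AAV9-GFP TAC. Why this heart differed was not tested.

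Without replicate 1, 535 of 17075 tested genes passed the threshold (3.13%), 255 higher (1.49%) and 280 lower (1.64%) in AAV9-Cardinal TAC. All 17 genes of the comparison with every mouse were among them. The unadjusted p was under 0.05 for 3274 genes, and 2907 genes had no overlap between the 3 and 4 mice (17.0%). Of the 535 genes, 533 were tested with all mice, in a fit that shares 7 of its 8 TAC hearts with this one. The median log2 fold change of the lower genes was -0.60 without and -0.47 with replicate 1, and that of the higher genes 0.32 and 0.26. Since the 7 other hearts chose these genes, the excluded heart can be placed among them as a description. It was below all AAV9-GFP TAC hearts in 104 of the 280 lower genes, within their range in 158 and above it in 18. In the 255 higher genes it was above all AAV9-GFP TAC hearts in 116, within their range in 125 and below it in 14. On a scale from 0 at the AAV9-GFP TAC mean to 1 at the mean of the other AAV9-Cardinal TAC hearts, its median position was 0.189 over the lower and 0.255 over the higher genes. Both ends of this scale come from the hearts that chose the genes, so a heart left out of the choice tends to lie below 1.

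**Figure D3:**
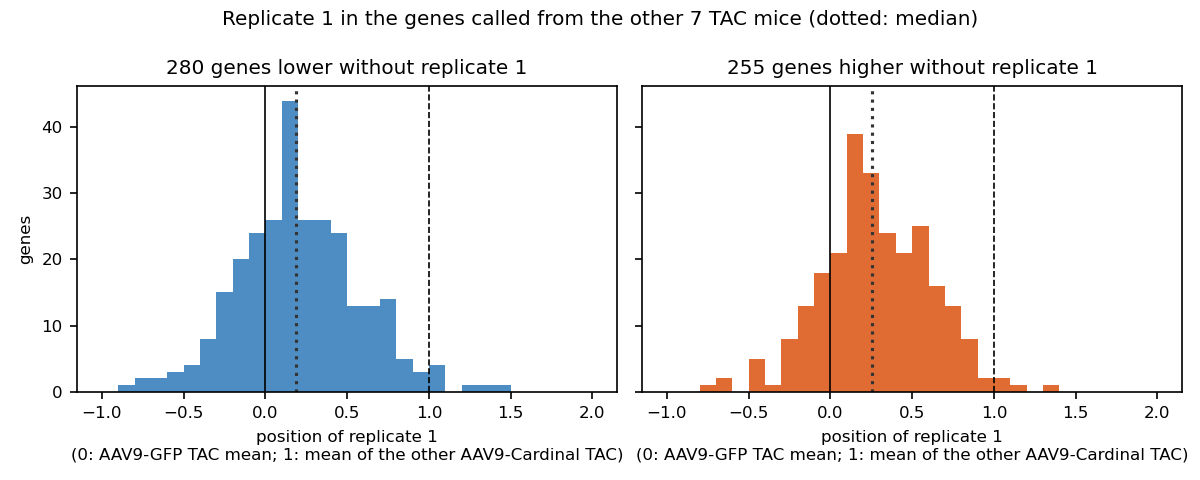
Distribution of the position of AAV9-Cardinal TAC replicate 1 (horizontal axis, 0 at the AAV9-GFP TAC mean and 1 at the mean of the other 3 AAV9-Cardinal TAC hearts, on log2 CPM) over the 280 genes lower (left) and 255 genes higher (right) without it; the vertical axis counts genes. The medians, drawn as dotted lines, are 0.189 and 0.255, nearer to 0 than to 1, on a scale set by the hearts that chose the genes.

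Among the lists with at least 4 tested genes, those of matrix and fibroblast genes had the lowest medians. Of the 19 tested collagen genes of a list of 21, 15 fell and none rose without replicate 1, with a median log2 fold change of -0.83 beside a median of -0.01 over all genes tested. With all mice none of the 19 passed, and the median was -0.57. Of 30 matricellular proteins and matrix glycoproteins, 14 fell and 1 rose without replicate 1 (median -0.55), and with all mice 1 fell (median -0.47). The list of 17 activated fibroblast markers, with 16 tested, had 7 lower genes without replicate 1 (median -1.25) and 1 with all mice (median -0.94), and all 16 had a log2 fold change below 0 in both fits.

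Periostin (Postn), the matricellular protein of activated fibroblasts, was at 115 CPM in replicate 1 and at 38.2, 51.2 and 41.5 CPM in replicates 4, 5 and 6 of AAV9-Cardinal TAC. It was at 134, 222, 154 and 161 CPM in AAV9-GFP TAC. No AAV9-Cardinal TAC heart reached the AAV9-GFP TAC range, and replicate 1 was the nearest to it. The log2 fold change was -1.45 with all mice (SE 0.27, edgeR adjusted p = 0.0503) and -1.94 without replicate 1 (SE 0.15, edgeR adjusted p = 2.04e-05). Sham hearts had 20.1 to 26.0 CPM.

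Cilp, a matrix protein of cartilage and of the pressure-overloaded heart, had the same arrangement, with 23.1 CPM in replicate 1, 6.81, 7.26 and 8.15 CPM in the other 3 and 25.2, 51.4, 30.9 and 33.2 CPM in AAV9-GFP TAC. Its log2 fold change was -1.63 (SE 0.33, edgeR adjusted p = 0.0575) with all mice and -2.24 (SE 0.21, edgeR adjusted p = 0.00012) without replicate 1. Ltbp2, which binds elastic microfibrils, was at 8.41 CPM in replicate 1, at 2.21 to 2.89 CPM in the other 3 and at 8.87 to 18.0 CPM in AAV9-GFP TAC (-1.51 and -2.15 in the same order of fits). Ccn5 (Wisp2) was at 10.2 CPM in replicate 1, inside the AAV9-GFP TAC range of 7.35 to 20.6 CPM, and at 1.17 to 3.96 CPM in the other 3.

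For the fibrillar collagens Col3a1 and Col1a1, replicate 1 lay above or inside the AAV9-GFP TAC range. Col3a1, collagen III, was at 249 CPM in replicate 1, above all 4 AAV9-GFP TAC hearts with 229, 231, 172 and 162 CPM, whereas replicates 4, 5 and 6 had 75.3, 87.5 and 92.5 CPM. The log2 fold change was -0.65 (SE 0.29, edgeR adjusted p = 0.299) with it and -1.22 (SE 0.14, edgeR adjusted p = 0.000342) without it. Col1a1, collagen I, was at 95.5 CPM in replicate 1, at 46.0, 49.9 and 52.4 CPM in the other 3 and at 112, 137, 91.7 and 96.97 CPM in AAV9-GFP TAC, and the 2 log2 fold changes were -0.84 (edgeR adjusted p = 0.0752) and -1.14 (edgeR adjusted p = 0.000157). Col8a1, Col12a1, Col14a1, Col5a1, Col5a2, Col6a1 and Col6a2 also fell without replicate 1, by 0.68 to 1.27 on the log2 scale. Of the basement membrane collagens, Col4a3 and Col4a4 fell in that fit (-0.57 and -0.66), as did Col15a1 and Col18a1 of the basement membrane zone (-0.83 and -0.58), while Col4a1 and Col4a2 did not pass in that fit (-0.37 and -0.44, edgeR adjusted p = 0.14 and 0.058).

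Around the collagens, 4 of 10 tested small leucine-rich proteoglycans fell without replicate 1 (Dcn, Bgn, Lum and Prelp), and 5 of 19 tested genes of collagen maturation and crosslinking (Pcolce, Adamts2, Loxl1, Loxl2 and P3h1). Biglycan (Bgn) was at 160 to 179 CPM in replicates 4, 5 and 6, at 290 CPM in replicate 1 and at 270 to 389 CPM in AAV9-GFP TAC. Loxl2, a lysyl oxidase that crosslinks collagen, fell by 1.11 on the log2 scale without replicate 1, but 45.0% of its 50-base stretches lie in other annotated genes as well, and its counts are uncertain. Fn1, fibronectin, had a log2 fold change of -0.47 with all mice (SE 0.12, edgeR adjusted p = 0.0982) and fell by 0.60 without replicate 1 (SE 0.10, edgeR adjusted p = 0.009). The gene that rose on the matrix glycoprotein list was Ltbp1 (0.29 without replicate 1), a carrier of latent TGF-β. Among genes of the TGF-β, BMP and activin families, 2 of 27 tested passed without replicate 1, Gdf6 and Fstl1, both lower.

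Of the 15 fibroblast markers, 8 fell without replicate 1 (Col1a1, Col1a2, Col3a1, Dcn, Lum, Pi16, Mfap4 and Cd248), most of which encode matrix proteins. All 15 had a log2 fold change below 0 with all mice (median -0.47) and 14 of 15 without replicate 1 (median -0.56). The exception was Pdgfra. Pdgfra, the receptor that marks resident cardiac fibroblasts, was at 20, 27.2, 26.6 and 20.8 CPM in AAV9-Cardinal TAC and 20.7, 21.5, 24.6 and 31.3 CPM in AAV9-GFP TAC, with log2 fold changes of -0.05 (SE 0.12) with all mice and 0.02 (SE 0.13) without replicate 1. The transcription factor Tcf21 (-0.24 and -0.23) and Ddr2 (-0.17 and -0.19) did not pass either. In bulk tissue, fewer cells of a type and less RNA per cell cannot be told apart. Summed over the 15 markers, fibroblast RNA was at 1153 to 1271 CPM in replicates 4, 5 and 6, 1622 CPM in replicate 1 and 1455 to 1823 CPM in AAV9-GFP TAC, beside 1210 to 1379 CPM in AAV9-GFP sham.

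**Figure D4:**
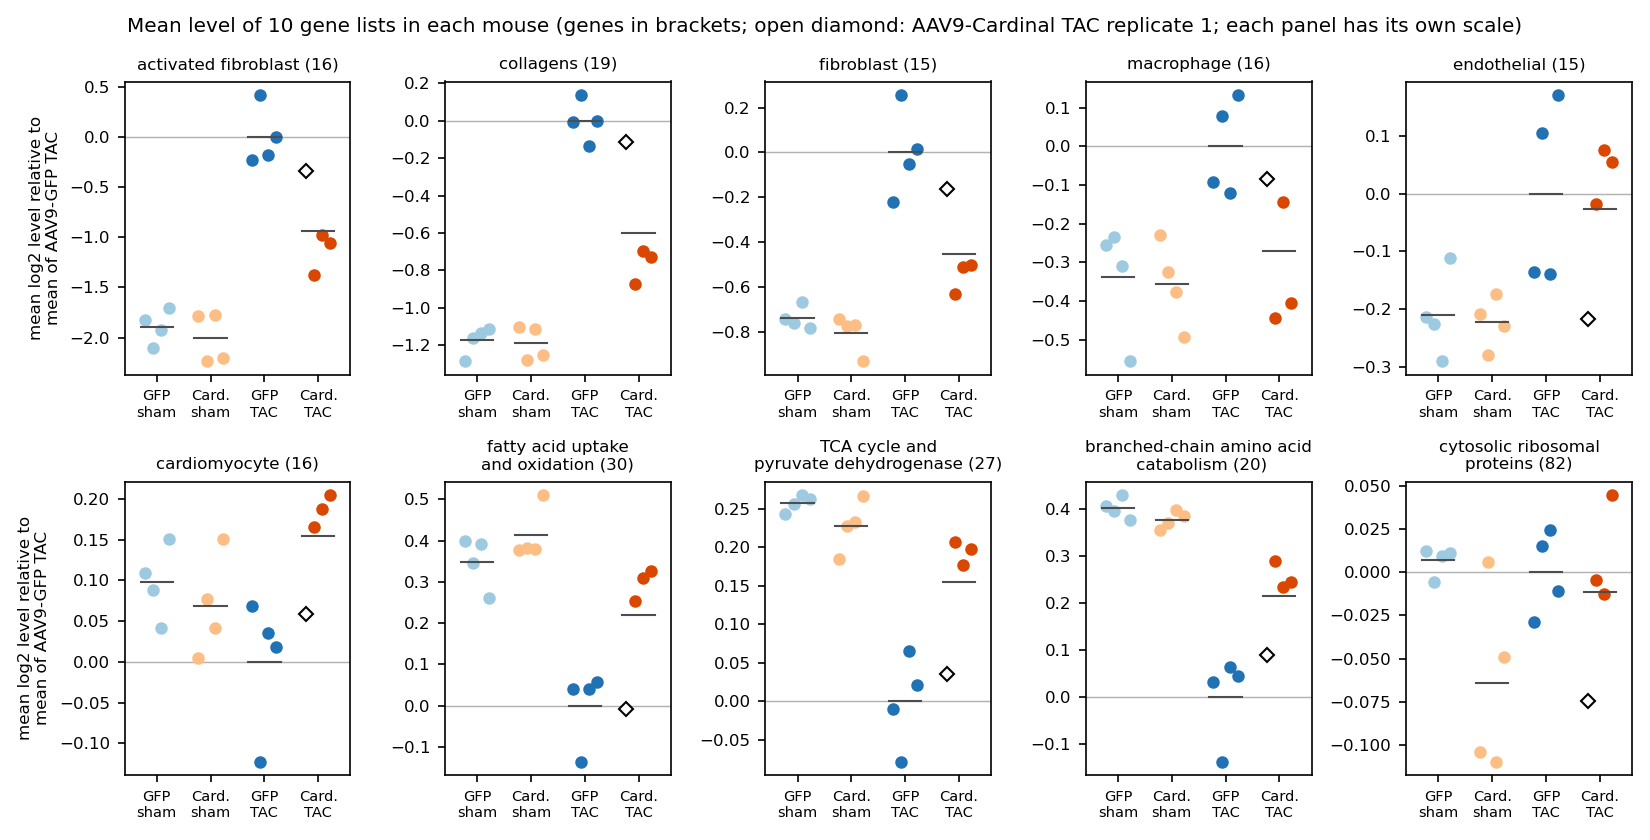
Mean level of 10 gene lists in each of the 16 mice (vertical axes, mean over the list's tested genes of log2 CPM minus the gene's AAV9-GFP TAC mean; each panel has its own scale), by group; lines are group means and the open diamond is AAV9-Cardinal TAC replicate 1. For activated fibroblast genes replicates 4, 5 and 6 are at -1.37 to -0.98 and the diamond at -0.34; for fatty acid oxidation they are at 0.25 to 0.33 and the diamond at -0.01.

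Relative to AAV9-GFP TAC, the mean level of the activated fibroblast list was -0.34 on the log2 scale in AAV9-Cardinal TAC replicate 1, and -1.37, -0.98 and -1.06 in replicates 4, 5 and 6. The AAV9-GFP TAC hearts themselves spanned -0.23 to 0.42, with replicate 3 the highest. Both sham groups averaged below all TAC hearts, at -1.998 with Cardinal and -1.89 with GFP. Collagens showed the same order, with -0.12 in replicate 1, -0.87, -0.70 and -0.73 in the other 3, -0.13 to 0.14 in AAV9-GFP TAC and -1.19 and -1.17 as the sham means. Thus the level of these lists in replicates 4, 5 and 6 lay between sham and AAV9-GFP TAC, and that of replicate 1 inside or next to the AAV9-GFP TAC range.

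Genes of mitochondrial fuel use had the greatest shares of members higher without replicate 1. Of 30 genes of fatty acid uptake and oxidation, 14 rose and none fell without replicate 1 (median log2 fold change 0.29), of 27 genes of the tricarboxylic acid cycle and pyruvate dehydrogenase 16 rose (median 0.20), and of 20 genes of branched-chain amino acid catabolism 11 rose (median 0.27). None of these genes passed with all mice, where the 3 medians were 0.23, 0.16 and 0.24. Each change was small, from 0.19 to 0.45 on the log2 scale among the genes that rose.

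Acaa2, the thiolase that ends each round of mitochondrial β-oxidation, had 288 CPM in replicate 1 of AAV9-Cardinal TAC and 356, 344 and 369 CPM in replicates 4, 5 and 6. It was at 274, 227, 285 and 258 CPM in AAV9-GFP TAC, just below replicate 1. The log2 fold change was 0.38 (SE 0.08, edgeR adjusted p = 0.064) with all mice and 0.45 (SE 0.07, edgeR adjusted p = 0.00606) without replicate 1, and sham hearts had 428 to 494 CPM. Other enzymes of the same pathway that rose without replicate 1 were the acyl-CoA dehydrogenases Acadl, Acadm and Acadvl, both subunits of the trifunctional protein (Hadha and Hadhb), the electron-transfer flavoproteins Etfa and Etfb with their oxidoreductase Etfdh, and Cd36, which takes up fatty acids.

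Sdha, the flavoprotein of succinate dehydrogenase, was at 843, 986, 993 and 955 CPM in AAV9-Cardinal TAC replicates 1, 4, 5 and 6 and at 794, 700, 813 and 831 CPM in AAV9-GFP TAC. The groups did not overlap even with replicate 1, and the log2 fold changes were 0.27 (SE 0.06, edgeR adjusted p = 0.0716) and 0.32 (SE 0.05, edgeR adjusted p = 0.00671). Ivd and Acadsb, dehydrogenases of branched-chain amino acid breakdown, had log2 fold changes of 0.39 and 0.36 without replicate 1, where both rose, and of 0.32 and 0.31 with it.

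Respiratory chain subunits followed with still smaller differences. Of 36 complex I subunits 9 rose without replicate 1 (median 0.16), and of 38 nuclear genes of complexes III, IV and V with cytochrome c 12 rose (median 0.18). None of them fell. Of the 13 mitochondrially encoded protein genes, mt-Co1 and mt-Co3 rose without replicate 1 (0.19 and 0.17), though 51.1% and 99.9% of their 50-base stretches also lie in other annotated genes. The median over the list with all mice was 0.10, which became 0.00 once GC content was corrected for. The mean level of the fatty acid list relative to AAV9-GFP TAC was -0.01 in replicate 1, 0.25, 0.31 and 0.33 in replicates 4, 5 and 6, and 0.41 and 0.35 as the means of AAV9-Cardinal and AAV9-GFP sham hearts. Glycolysis had a median of 0.02 over 19 genes without replicate 1, with 3 genes higher, the muscle enzymes Pfkm and Eno3 and the heart-type lactate dehydrogenase Ldhb.

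Some cardiomyocyte contractile genes were slightly higher, and 2 of 12 hypertrophy markers fell. Of 16 cardiomyocyte markers, 4 rose without replicate 1 (Tnnt2, Tnni3, Myl2 and Atp2a2), by 0.29 to 0.35 on the log2 scale, and none passed with all mice (median 0.17). Tnni3, adult troponin I, was at 1872 CPM in replicate 1, 2365, 2259 and 2319 CPM in replicates 4, 5 and 6 and 1857, 1673, 1922 and 1832 CPM in AAV9-GFP TAC. Summed over the 16 markers, cardiomyocyte RNA was at 62030 CPM in replicate 1, 66703 to 68011 CPM in the other 3 and 52282 to 62047 CPM in AAV9-GFP TAC. In the vector the cTNT promoter drives Cardinal or GFP and not Tnnt2, and Tnnt2 reads do not measure the vector.

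Of the 12 hypertrophy markers, Acta1 fell in both fits and Nppa, atrial natriuretic peptide, passed without replicate 1 but not with it. All 12 had a log2 fold change below 0 with all mice (median -0.45), and 10 of 12 did without replicate 1 (median -0.37). Nppa was measured at 399, 213, 183 and 241 CPM in AAV9-Cardinal TAC replicates 1, 4, 5 and 6 and at 434, 1396, 431 and 675 CPM in AAV9-GFP TAC. The groups did not overlap, but the 4 AAV9-GFP TAC hearts were spread widely, and the log2 fold change was -1.50 (SE 0.40, edgeR adjusted p = 0.105) with all mice and -1.79 (SE 0.43, edgeR adjusted p = 0.0368) without replicate 1. Without AAV9-GFP TAC replicate 3, the heart with the highest level, the first value was -0.99. With replicate 1 and another mouse left out, Nppa was at -1.98 to -1.27 and passed in 10 of 15 fits. Of the 50-base stretches of Nppa, 53.4% are shared with Gm13054 on the opposite strand, from which its reads cannot be told apart without strand.

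Nppb, B-type natriuretic peptide, was at 223, 145, 178 and 268 CPM against 174, 394, 221 and 377 CPM. The groups overlapped, and the log2 fold change was -0.52 (SE 0.41, edgeR adjusted p = 0.614). Ankrd1, a stress-induced protein of the sarcomere, was at 2574 CPM in replicate 1, 1124 to 1424 CPM in the other 3 and 1985 to 3061 CPM in AAV9-GFP TAC, without passing in either fit (-0.65 and -0.96). Myh7, the slow myosin heavy chain, had a log2 fold change of -0.04 in both fits. Among 12 adult cardiac genes known to decline in hypertrophy, Atp2a2, Kcnip2 and Cacna1c rose without replicate 1 (0.34, 0.40 and 0.31).

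**Figure D5:**
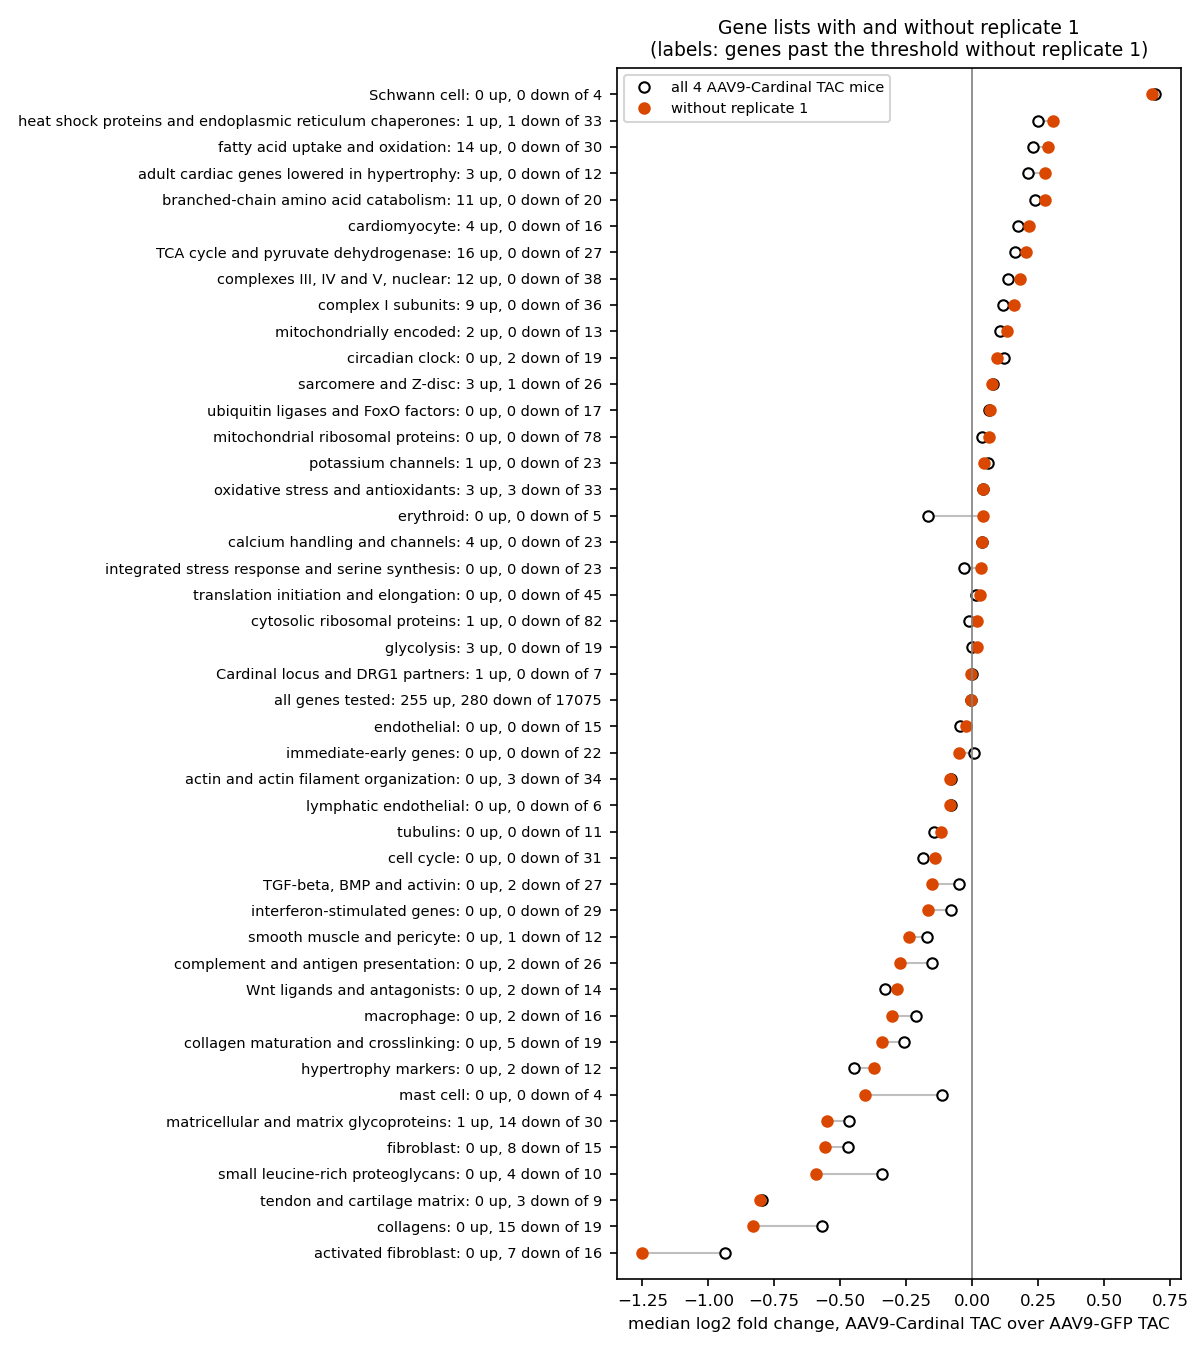
Median log2 fold change of AAV9-Cardinal TAC over AAV9-GFP TAC (horizontal axis) for all genes and for each list with at least 4 tested genes (vertical axis), with all 4 AAV9-Cardinal TAC mice (open) and without replicate 1 (filled); the labels count genes past the threshold without replicate 1. Activated fibroblast genes are lowest at -1.25 without replicate 1 and -0.94 with it, and the collagens move from -0.57 to -0.83.

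Among single genes with the greatest differences without replicate 1, several lay outside these lists. Rgs2, which restrains Gq signaling, was at 23.4, 21.05 and 16.9 CPM in replicates 4, 5 and 6, 13.6 CPM in replicate 1 and 8.94 to 12.6 CPM in AAV9-GFP TAC (log2 fold change 0.94, SE 0.23, edgeR adjusted p = 0.0398). Mylk4, a myosin light chain kinase of striated muscle, stood at 331, 295 and 250 CPM in the same hearts, 242 CPM in replicate 1 and 94.2 to 210 CPM in AAV9-GFP TAC (0.83). Gsta3, a glutathione transferase (0.89), Plin4, a lipid droplet protein (0.69), P2ry1, an ADP receptor (0.66), and Acer2, an alkaline ceramidase (0.83), also rose. So did Spock2, Fam78b, Etfbkmt, 4930481A15Rik and Gm43185, which overlaps exons of Nexn on the same strand. Plin4, P2ry1 and 4930481A15Rik overlap exons of genes on the opposite strand, as do Ltbp2 and Mfap4. These calls were less stable than that of Acta1, which passed in all 15 fits with another mouse left out as well. Mylk4 and Etfbkmt passed in 4 of these 15 fits, Rgs2 in 5, Spock2 in 7 and Fam78b in 8. The gene 4930481A15Rik passed in 10, Gsta3 in 11, Acer2 and P2ry1 in 12, Plin4 in 13 and Gm43185 in 14.

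Amd1 and Amd2, which share most of their sequence and make the decarboxylase of polyamine synthesis, rose by 0.68 and 0.67 and cannot be counted apart. On the lower side were Nlrc3 (-1.45), Mfap4 (-1.41) and Fibin (-1.27). For Fibin, replicate 1 was at 16.9 CPM, inside the AAV9-GFP TAC range of 9.97 to 20.6 CPM, and the other 3 were at 5.31 to 6.86 CPM. With another mouse left out as well, Amd1, Amd2, Fibin and Mfap4 passed in 10, 4, 6 and 13 of 15 fits, and Nlrc3 in all 15.

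Other cell types were followed by markers. None of 15 endothelial markers passed in either fit (medians -0.05 and -0.02), and Cdh5 was at 138 to 152 CPM against 152 to 180 CPM. Of 16 macrophage markers, Cd68 and C1qc fell without replicate 1. Cd68, a lysosomal glycoprotein of macrophages, was at 9.73 CPM in replicate 1, above all other TAC hearts, at 3.99 to 4.84 CPM in replicates 4, 5 and 6 and at 6.61 to 8.83 CPM in AAV9-GFP TAC. The macrophage sum was 314 CPM in replicate 1, 236 to 277 CPM in the other 3 and 257 to 333 CPM in AAV9-GFP TAC, and the sum over 12 smooth muscle and pericyte markers was 938 to 1024 CPM against 981 to 1059 CPM, with Notch3 the 1 marker lower without replicate 1. T, NK and B cell, neutrophil, mast cell, Schwann cell and mesothelial markers had no gene past the threshold, and most were too low to test. Of 7 Schwann cell markers 4 were tested, all with a log2 fold change above 0 in both fits. Their medians were 0.69 with all mice and 0.68 without replicate 1. Summed over the 7 markers, the level was low and the groups overlapped, at 4.10 to 5.73 CPM against 1.17 to 4.83 CPM. Without replicate 1, 8 of 15 fibroblast, 2 of 16 macrophage and 4 of 16 cardiomyocyte markers passed, and with all mice none did. The part of these cell types in the results for matrix and mitochondrial genes was not tested.

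Of the other pathways, tendon and cartilage matrix had 3 of 9 tested genes lower without replicate 1 (33.3%). Wnt ligands and antagonists had 2 of 14 lower (14.3%), and calcium handling and channels 4 of 23 higher (17.4%). Of 26 sarcomere and Z-disc genes, 3 rose and 1 fell (15.4%). Of 33 oxidative stress and antioxidant genes, 3 rose and 3 fell (18.2%). With all mice, 2, 1, 0, 0 and 1 genes passed in the same order. The lists that follow had few or no genes past the threshold. Over all genes, 3.13% passed without replicate 1 and 0.101% with all mice, shares at which short lists hold about 1 such gene or none. Of 82 tested cytosolic ribosomal protein genes, 1 rose without replicate 1 (Rpl3l, the muscle form, 0.47), which is 1.22% of the list beside 1.49% of all genes, with a median of 0.02 over the list, and none of 78 mitochondrial ribosomal protein genes or 45 translation factor genes passed in either fit. No gene of the integrated stress response, interferon, cell cycle or immediate-early lists passed either. Of 33 heat shock proteins and chaperones, 29 had a log2 fold change above 0 in both fits, with medians of 0.25 with all mice and 0.31 without replicate 1. With all mice, 10 of them were higher and 1 lower with no overlap between the 4 and 4 hearts (33.3%, beside 6.77% of all genes), and none passed. Hspd1 rose and Hspb6 fell without replicate 1. Hsph1 and Dnaja1, both cytosolic chaperone genes, had log2 fold changes of 1.05 (SE 0.42) and 0.85 (SE 0.35) with all mice, within 0.96 to 1.17 and 0.75 to 0.96 with a mouse left out, and did not pass (edgeR adjusted p = 0.256 and 0.269). Hspa1b, which shares 62.3% of its 50-base stretches with other genes, ranged from 19.4 to 85.9 CPM in AAV9-Cardinal TAC, from 5.01 to 37.2 CPM in AAV9-GFP TAC and from 3.39 to 140 CPM over the sham hearts. In the actin list, Acta1, Tpm2 and Capg fell and 31 of 34 genes did not pass, with a median of -0.08. Of the circadian clock genes, Dbp and Nr1d1, both outputs of the clock, fell without replicate 1 (-1.17 and -1.04), with Dbp at 101 CPM in replicate 1, 28.8 to 37.7 CPM in the other 3 and 121, 66.3, 54.8 and 49.8 CPM in AAV9-GFP TAC. Both have exons overlapping a gene on the opposite strand, Sphk2 and Thra.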

How the data were processed

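RNA-seq of the heart apex gave 1 library per mouse for 16 mice, single-end reads of 50 bases. The authors deposited 1 table of raw counts per Ensembl gene for all 16 mice; per the submitters' processing notes FastQC, HISAT2 2.1.0, edgeR 3.26.1 and GRCm38 were used, while the counting program, annotation and strand setting are not given in the sources used here. Of 55573 genes, 55480 were named with GENCODE M21 and 93 were not.

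Groups and replicate numbers came from the titles. Counts were fitted with edgeR 4.0.16 (TMM, filterByExpr, quasi-likelihood F test, two-sided, Benjamini-Hochberg, adjusted p under 0.05), all 16 mice sharing the spread (common coefficient of biological variation 0.128), and again with 15 mice without AAV9-Cardinal TAC replicate 1. The sham mice enter the gene filter, the TMM scaling and the spread, and in the fits with a replicate block also the block terms. DESeq2 1.42.0, other filters, scalings, a GC content offset, a replicate block and each mouse left out were alternatives. The fits were tested on simulated data.

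The comparison, its genes and its lists were chosen with earlier results of these data known, so lists are given by counts and medians with no test. Genes named were Cardinal, every gene past the threshold with all mice and at least 1 CPM, the 15 highest and 15 lowest without replicate 1 with at least 5 CPM and no overlap, up to 4 members a list, the transcripts the study measured by RT-qPCR, and cell type markers; further list members were named after their values were seen. Exact permutation tests were two-sided over mice. A CPM of 0 allows up to 0.126 to 0.141 CPM (3 counts) in the TAC libraries, counting error only. Reads were not deduplicated here. No 2 libraries of 1 group agreed within sampling noise.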

Additional observations from a re-analysis of the deposited data

Results flagged for a closer look

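In groups of 4 mice, single mice that stood apart from the other 3 by Dixon's gap test were looked for in 80 groups (the genes named for all mice, by RT-qPCR or as cell type markers). There were 12, where chance gives about 1 in 20 groups, or 4, and 6 of them were AAV9-Cardinal TAC replicate 1. The groups share the same mice, so the flags are not independent, and the excess over 4 was not tested. That heart had 93.9 CPM of Cardinal (18.3 to 20.6 CPM in the other 3), 115 CPM of Postn (38.2 to 51.2 CPM), 95.5 CPM of Col1a1 (46.0 to 52.4 CPM), 56.6 CPM of Fn1 (38.8 to 41.5 CPM), 9.73 CPM of Cd68 (3.99 to 4.84 CPM) and 4123 CPM of Tnnt2 (4793 to 4919 CPM). Its values were highest in its group for the first 5 and lowest for Tnnt2.

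AAV9-GFP TAC replicate 3 stood above its group for Frzb with 8.43 CPM (6.08 to 6.39 CPM) and for Cdh5 with 180 CPM (152 to 155 CPM). AAV9-Cardinal TAC replicate 6 was below its group for Rgs5, a pericyte marker, with 445 CPM (490 to 497 CPM). The remaining 3 were single values of at most 3 counts beside mice at 0, namely Cd3e at 0.0921 CPM in AAV9-Cardinal TAC replicate 6 and 0.129 CPM in AAV9-GFP TAC replicate 1, and Adipoq at 0.13 CPM in AAV9-GFP TAC replicate 7.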

How the results depend on the processing

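With all mice, 17 genes passed. The count was 405 (261 higher, 144 lower) with DESeq2, 3 with no filter on low counts, 35 with at least 1 CPM in 4 mice, 3 when only the TAC mice entered the fit (none of the 17), 30 with mitochondrially encoded genes left out, and 0 to 535 with a mouse left out. The titles share only numbers 1 and 4 between the TAC groups, and deviations of same-numbered hearts correlated at 0.428 and 0.245 over 8364 genes. Hearts of different numbers correlated at -0.345 to 0.286, the highest being AAV9-Cardinal TAC replicate 5 with AAV9-GFP TAC replicate 7. With the replicate number as a block, edgeR called 0 genes (1681 at an unadjusted p under 0.05), and 0 with block and GC offset (1449). Numbers 5, 6 and 7 each occurred in 1 mouse, whose values the block takes up entirely. Both block fits thus compared only AAV9-Cardinal TAC replicates 1 and 4 with AAV9-GFP TAC replicates 1, 3 and 4. Their counts cannot be set beside the 17.

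Without replicate 1, 535 genes passed. The count was 897 with DESeq2 (532 higher), 312 with no filter, 91 with only the TAC mice and 178 with at least a 1.5-fold change. With another mouse left out it was 83 to 764. It was 83, 133 and 286 without AAV9-Cardinal TAC replicate 4, 5 or 6, and 191 without AAV9-GFP TAC replicate 3. With the replicate block, the AAV9-Cardinal TAC side rested on replicate 4 alone, so no count is given. With all mice, 0 passed without AAV9-Cardinal TAC replicate 4, 5 or 6, AAV9-GFP TAC replicate 3 or each of 4 sham mice (1692 to 2507 at an unadjusted p under 0.05), 57 and 79 without AAV9-GFP TAC replicate 1 or 4, and 4 to 14 without the other mice. The cause was not tested.

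Cardinal kept its direction but not its adjusted p under 0.05, at 2.97 with no filter (0.0723), 2.96 with only the TAC mice (0.225), 3.256 with the block (0.225) and 3.22 with block and GC offset (0.209), and was at 2.00 to 3.22 with a mouse left out. DESeq2 gave no p for Cardinal with all mice. No named gene past the threshold changed sign. Of those not past it, Pdgfra was at -0.13 to 0.09 with a mouse left out. The medians of the cytosolic ribosomal protein and immediate-early lists changed sign without replicate 1 (-0.01 to 0.02 and 0.01 to -0.05). So did those of the integrated stress response (-0.03 to 0.03), erythroid (-0.17 to 0.04) and fast skeletal muscle lists (-0.15 to 0.28). Log2 fold changes fell with the GC content of genes (Spearman's rho -0.245 over 16842 genes, a description across genes, and -0.014 with the offset), and with the offset 521 genes passed without replicate 1 (299 higher). Low genes such as Gdf6 rest on few counts.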
